A study of Mus musculus with 12 samples.

Results

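Embryonic stem cells (ESC) that lack Sirt1 were compared with wild-type ESC grown in the same medium, by RNA sequencing of 3 libraries of each. These are 6 of the 12 libraries of the series, chosen by the genotype in their labels, and no measured value was used to choose them. The wild-type group is labelled wild type and the knockout group Sirt1KO. Both are mouse ESC of strain C57 Bl/6J and, per the labels' protocols, all ESC of the series were kept on gelatin in serum-free N2B27 medium with LIF, 1 uM of the MEK inhibitor PD0325901 and 3 uM of the GSK3 inhibitor CHIR99021. The other 6 libraries are used here as values set alongside. They are 3 of Sirt1KO ESC with Otx2 knocked down (Sirt1KO, Otx2KD) in the same medium, and 3 of wild-type epiblast-like cells (EpiLC), made by keeping ESC for 48 h on fibronectin with KOSR (1%), 20 ng/ml of Activin A and, as the FGF source, 12 ng/ml of Fgf2. The labels give neither the deleted part of Sirt1, nor the number of Sirt1KO clones, nor how Otx2 was knocked down. They do not say whether replicates are separate cultures, so p-values rest on the variation among these samples, part of which may be technical alone.

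Sirt1 is an NAD-dependent deacetylase that removes acetyl groups from histones and from transcription factors such as p53, FoxO proteins and the p65 subunit of NF-kB, and so ties gene activity to the metabolic state of the cell. Naive ESC resemble the epiblast before implantation: blocking MEK removes the ERK signal that drives them to differentiate, and LIF and GSK3 inhibition sustain the transcription factors of the naive network. On the way to the primed state of the epiblast after implantation, cells lower that network and raise Otx2, Fgf5, Pou3f1 and the de novo DNA methyltransferases. The series was designed to set the changes after Sirt1 loss beside those of the transition from the naive to the primed state.

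Values are FPKM, fragments scaled by transcript length and by the total of mapped fragments, so levels can be compared between genes. Genes with close copies in the genome are an exception, since their levels are uncertain. Changes are differences of group means of log2(FPKM + 1), which understate the change of genes with low FPKM, and are given ± SE. Levels are given for each library in order of replicate, or as mean ± SD (n = 3). No read counts are given. Depth relative to wild-type replicate 1, estimated from the steps between low values, was 0.986 to 1.02 in wild-type ESC and 1.05 to 1.2 in Sirt1KO. Each of the 6 libraries listed between 15894 and 16013 named loci above 0. Testing was limited to the 11670 named loci that reached 1 FPKM in 3 or more of these libraries, the minimum referred to below. A call means a limma adjusted p (Benjamini-Hochberg, over all these loci) under 0.05.

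Sirt1 itself was read at a lower level in every Sirt1KO library, but it was not absent. The wild-type libraries gave 25.8, 25.4 and 26.2 FPKM and the Sirt1KO libraries 15.3, 15.3 and 15.7 FPKM. The groups did not overlap, and the change was -0.70 ± 0.05 (limma adjusted p = 1.22e-06). This value covers the whole gene (chromosome 10, 62781753 to 62801783, mm9), so transcript from outside the deleted part would be counted in it. The level was 15.6 ± 0.492 FPKM in Sirt1KO Otx2KD and 33.2 ± 1.24 in EpiLC. Of the other sirtuins, Sirt6, a nuclear deacetylase, fell from 24.7, 25.8 and 26.7 to 14.2, 14.4 and 14.3 FPKM (-0.80 ± 0.05, limma adjusted p = 8.82e-07), and the mitochondrial Sirt3 fell from 14.02 ± 1.34 to 9.09 ± 0.826. Mitochondrial Sirt5 passed with 2.93 ± 0.235 and 4.35 ± 1.26 FPKM (0.42 ± 0.16, limma adjusted p = 0.0416), but its libraries overlapped and the call was lost without any one library except Sirt1KO replicate 3. Sirt2 (-0.14) and Sirt4 (-0.15) did not pass. Sirt7 shares a locus with Mafg in the deposited annotation and cannot be read alone.

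Across the transcriptome, 3645 loci (31.2%) were higher and 3479 (29.8%) lower in Sirt1KO, 7124 or 61% in all, and the median change of all loci was 0.02. At this rate a call alone says little about a gene group, so each count below is to be read against those shares. Changes of at least 1 log2 unit were fewer, with 316 loci higher (2.71%) and 538 lower (4.61%). At 7804 loci (66.9%) every library of one group lay above every library of the other in the values tested. This is meant below where groups are said not to overlap.

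Genes beside Sirt1 moved in both directions. Of 28 loci tested that start within 2 Mb of it, 11 were higher and 3 lower, against 31.2% and 29.8% of all loci, and their median change was 0.07. The largest changes there were a fall of serglycin, Srgn, a proteoglycan core protein, from 4.30, 5.04 and 4.50 to 1.67, 1.24 and 0.696 FPKM (-1.37 ± 0.15), and a rise of the tetraspanin Tspan15 from 2.61, 2.42 and 3.15 to 5.49, 6.10 and 6.44 FPKM (0.91 ± 0.10). The macroH2A histone gene H2afy2 rose as well (0.64 ± 0.06). Tet1, which lies in this neighbourhood and encodes a methylcytosine dioxygenase, did not pass, with 39.4, 37.0 and 35.2 FPKM in wild type and 33.5, 36.6 and 37.8 in Sirt1KO.

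Part of the difference between these cells lay in whole stretches of chromosomes. On chromosome 8 the median change of 644 loci was 0.46 and 84.5% of them were higher, and on chromosome 11 the median of 994 loci was -0.51 and 13.8% were higher. The medians of the Sirt1KO libraries lay between 0.47 and 0.48 on chromosome 8 and between -0.51 and -0.50 on chromosome 11. The EpiLC libraries, which are labelled wild type, gave 0.39 to 0.40 and -0.51 to -0.49, and the Sirt1KO Otx2KD libraries 0.35 to 0.38 and -0.41 to -0.40. So the 2 shifts set wild-type ESC apart from the 3 other groups and do not follow the Sirt1 label. The median of each of these chromosomes was therefore subtracted from the Sirt1KO values of its loci before the test. Printed FPKM levels are as deposited, and log2 changes of genes on chromosomes 8 and 11 are those after this subtraction. For these genes the overlap of groups was also judged after subtraction, so groups counted as separate may overlap in deposited FPKM.

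**Figure D1:**
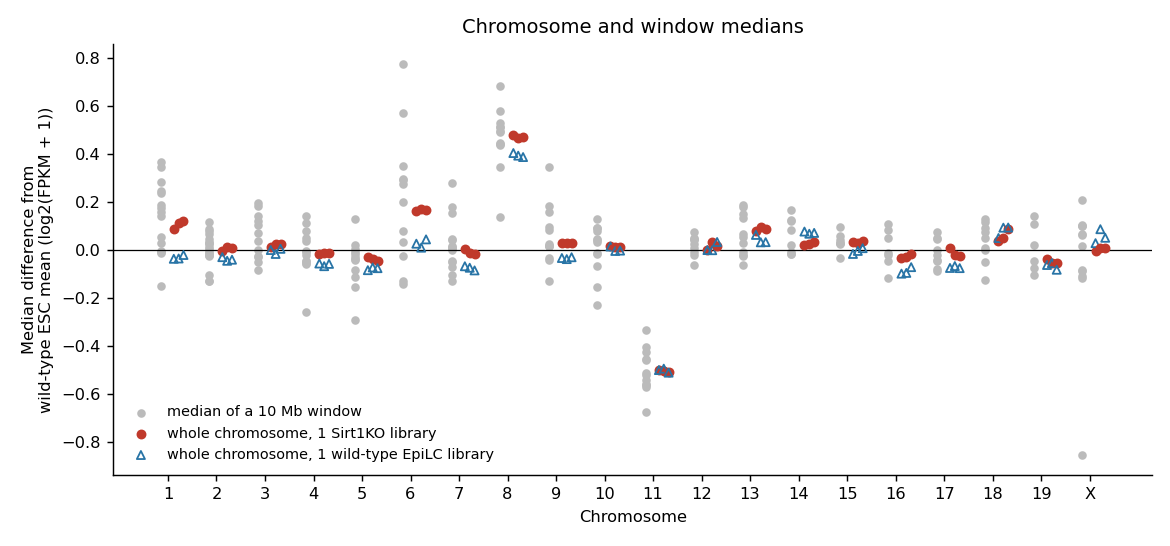
Median difference from the wild-type ESC mean, in log2(FPKM + 1), on the vertical axis for each chromosome on the horizontal axis; grey points are the Sirt1KO medians of 10 Mb windows with at least 15 loci tested, red points are whole-chromosome medians of each Sirt1KO library and open blue triangles those of each wild-type EpiLC library. All 12 windows of chromosome 8 lie above 0 and all 12 of chromosome 11 below it; 2 windows of chromosome 6 and 1 of chromosome X lie beyond 0.5 as well.

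Cut into 10 Mb windows, most of the other chromosomes stayed close to wild type: of 198 windows with at least 15 loci, 14 had a median beyond 0.25 and 3 beyond 0.5 in either direction. On chromosome 1 every window between 30 and 100 Mb was raised, with medians of 0.14 to 0.37. The same windows gave -0.12 to 0.07 in Sirt1KO Otx2KD and -0.15 to 0.26 in EpiLC. Chromosome 6 held 6 of those 14, all above 0, and its median over 542 loci was 0.16, with 63.3% of them higher. Beyond 0.5 it had 2 stretches. Between 50 and 60 Mb (mm9), 21 of 31 loci were higher and 5 lower, with a median of 0.57, and between 70 and 80 Mb 28 of 31 were higher and 1 lower, with a median of 0.78. In Sirt1KO Otx2KD the medians of these stretches were 0.59 and 0.81, and in EpiLC -0.04 and -0.28. The first 10 Mb of chromosome X were lowered, with 31 of 37 loci lower, 1 higher and a median of -0.85. That stretch stood at -0.80 in Sirt1KO Otx2KD and at -0.50 in EpiLC. Each of these comparisons uses the same wild-type libraries.

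Genes of these stretches are named here after their values were seen, unless a list holds them. On chromosome 6 the actin-binding peptide gene Tmsb10 went from 77.0, 80.3 and 85.5 to 204, 216 and 232 FPKM (1.41 ± 0.05), and succinate-CoA ligase Suclg1 from 37.1, 38.4 and 36.5 to 71.7, 76.1 and 77.9 (0.99 ± 0.05). On chromosome X, Porcn, the acyltransferase that Wnt ligands need for secretion, went from 14.8, 14.2 and 14.1 to 0.852, 0.847 and 0.822 FPKM (-3.06 ± 0.07). The tubulin deacetylase Hdac6 went from 49.7, 50.4 and 52.9 to 20.1, 21.7 and 20.8 FPKM (-1.25 ± 0.05) and the ES cell Ras gene Eras from 18.1, 18.5 and 16.4 to 6.56, 5.57 and 4.27 (-1.54 ± 0.12). The groups did not overlap for any of these 5 genes, of which Porcn reached the minimum through wild type alone and could only be lower. The kinase gene Pim2 was the 1 gene called higher in that stretch, from 21.7 ± 0.748 to 44.1 ± 11.8 FPKM. With window medians subtracted instead of chromosome medians, an alternative chosen after seeing the data, Porcn kept -2.21 and Hdac6 -0.39, and both still passed. The Y-linked genes Eif2s3y, Ddx3y and Uty were near 0 in Sirt1KO, and all 3 reached the minimum through wild-type ESC alone. Uty, for one, read 5.25, 5.01 and 4.71 FPKM in wild-type ESC and 0, 0 and 0.017 in Sirt1KO. In wild-type EpiLC the Y-linked genes were low as well, with Eif2s3y at 4.52 ± 0.857 and Ddx3y at 2.81 ± 0.309 FPKM against 28.9 ± 1.48 and 14.4 ± 0.449 in wild-type ESC. The summed FPKM of 8 Y-linked genes was 48.5 to 52.5 in wild-type ESC, 7.97 to 10.2 in EpiLC, 0.0872 to 0.22 in Sirt1KO and 0.512 to 1.13 in Sirt1KO Otx2KD. Part of the difference in the Y-linked genes and in the stretch of chromosome X was thus also present between libraries labelled wild type. The fall of Porcn was not: it read 14.7 ± 0.144 FPKM in EpiLC and 2.75 ± 0.569 in Sirt1KO Otx2KD, against 14.4 ± 0.359 in wild-type ESC. The rest of that difference, Porcn included, and the raised stretches of chromosome 6 cannot be told apart from the Sirt1 genotype in this design.

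Several genes of the primed state were raised in Sirt1KO cells although the medium was that of naive culture. Otx2, a homeobox factor of the epiblast after implantation, read 7.60, 6.85 and 7.68 FPKM in wild type and 34.2, 24.6 and 22.2 in Sirt1KO (1.72 ± 0.15, limma adjusted p = 5.24e-05). The POU factor Pou3f1 read 1.34, 1.32 and 1.35 and 12.5, 8.66 and 8.66 FPKM (2.21 ± 0.13), and the growth factor Fgf5 0.172, 0.174 and 0.212 and 4.35, 2.303 and 2.41 FPKM (1.73 ± 0.17). The RNA-binding protein Lin28a, which blocks let-7 maturation, went from 20.0, 20.6 and 21.0 to 107, 86.6 and 82.2 FPKM (2.1 ± 0.09) and its relative Lin28b from 2.41 ± 0.294 to 6.64 ± 0.903. In each of these 5 genes Sirt1KO replicate 1 was the highest of the 3 knockout libraries, and the groups did not overlap.

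Other primed genes fell. Of 21 primed and formative genes tested, 11 rose and 8 fell, with a median change of 0.73 against 0.02 over all loci; Dnmt3a, Dnmt3b, Etv4, Etv5 and Cldn6 of this list also belong to lists below. With a minimum of 5 FPKM, 8 rose and 8 fell of 16 and the median was 0.15. Lef1, the HMG-box effector of Wnt signalling, fell from 10.3, 12.2 and 11.4 to 2.65, 1.75 and 2.05 FPKM (-1.97 ± 0.11). The zinc finger factors Zic2 (from 42.9 ± 2.72 to 18.03 ± 2.27 FPKM) and Zic5 (from 9.25 ± 0.739 to 4.23 ± 0.654 FPKM) fell, and so did the bHLH factor Tcf15 (from 11.7 ± 2.12 to 5.31 ± 2.12 FPKM), whose call was lost without Sirt1KO replicate 2 or replicate 2 or 3 of wild type. The EpiLC means of these 4 genes were 23.9, 51.7, 13.7 and 55.6 FPKM, above those of both ESC groups. For the genes that rose, EpiLC levels were above those of Sirt1KO too: 100.2 FPKM for Otx2, 33.0 for Pou3f1, 6.11 for Fgf5 and 195 for Lin28a. Sirt1KO Otx2KD libraries gave 6.07 ± 0.401 FPKM for Otx2, 2.28 ± 0.186 for Pou3f1, 0.466 ± 0.156 for Fgf5 and 21.8 ± 0.572 for Lin28a, against 20.6 ± 0.509 for Lin28a in wild type. Of the 21 genes, 3 reached the minimum through Sirt1KO alone and so could only be higher there.

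**Figure D2:**
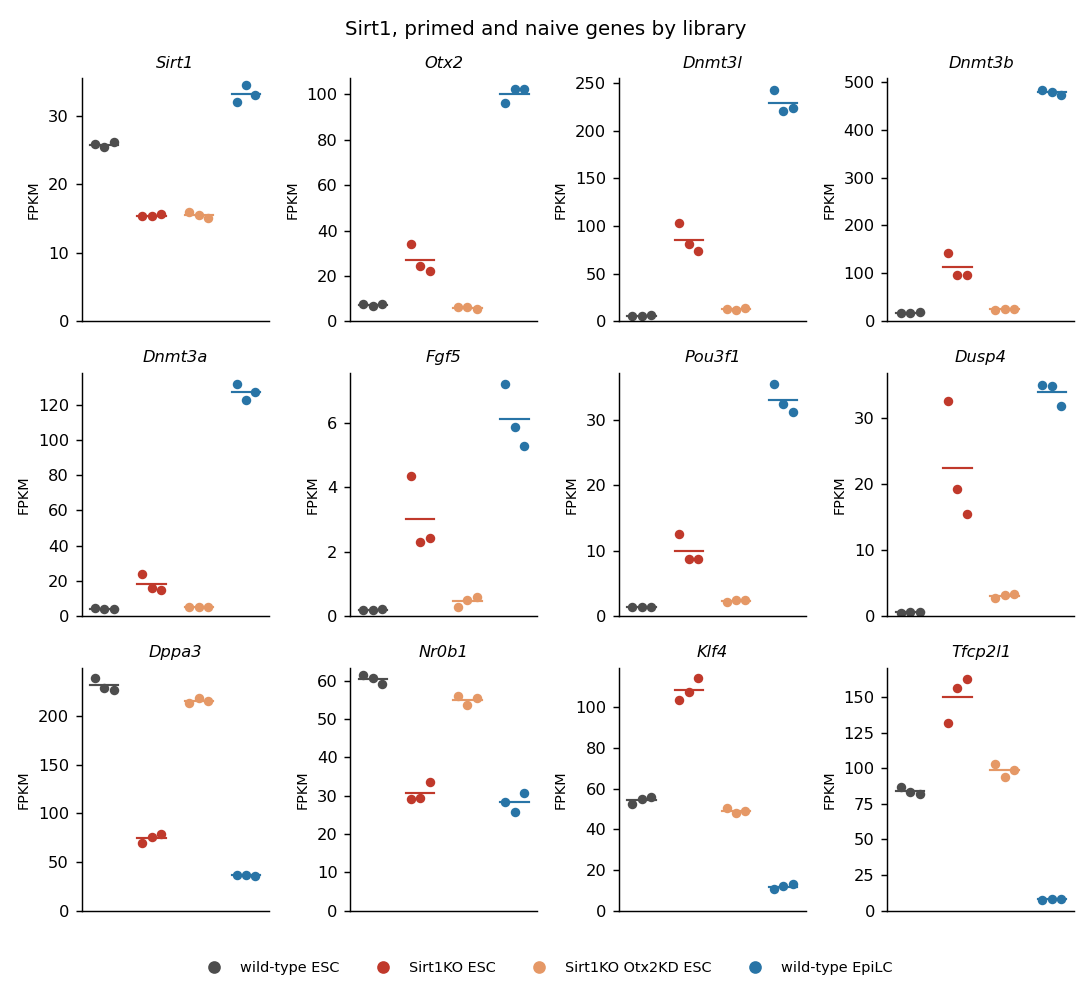
FPKM of Sirt1, primed genes, the ERK phosphatase Dusp4 and naive genes in each of the 12 libraries, with 1 panel per gene and its own linear axis from 0; points are libraries in order of replicate, bars the group mean. Sirt1 drops to about 15 FPKM in both knockout groups, the primed genes are high in Sirt1KO and lower again in Sirt1KO Otx2KD, and Klf4 and Tfcp2l1 are highest in Sirt1KO while Dppa3 and Nr0b1 are low there.

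The machinery of DNA methylation changed in its de novo arm most. Dnmt3l, a catalytically inactive cofactor of the de novo enzymes, read 5.53, 5.19 and 6.31 FPKM in wild type and 103, 80.7 and 73.7 in Sirt1KO (3.69 ± 0.12). Dnmt3b went from 17.3, 16.7 and 19.03 to 143, 96.4 and 97.6 FPKM (2.58 ± 0.17) and Dnmt3a from 4.31, 4.13 and 3.75 to 23.8, 16.02 and 14.6 (1.89 ± 0.16, limma adjusted p = 4.32e-05). All 3 were above wild type in every knockout library, with replicate 1 highest. Of the maintenance genes, Dnmt1 fell from 84.7 ± 0.419 to 67.7 ± 1.89 FPKM (-0.32 ± 0.04) while Uhrf1, which guides Dnmt1 to replicated DNA, rose from 97.3 ± 1.60 to 137 ± 4.43 (0.49 ± 0.04). The demethylase Tet2 fell from 33.5 ± 1.51 to 21.0 ± 1.71 FPKM (-0.65 ± 0.06), as did Prdm14, a repressor of the de novo enzymes in naive cells, from 31.3, 31.9 and 32.7 to 16.9, 20.4 and 19.6 FPKM (-0.72 ± 0.07). In all, 5 of 14 genes of the methylation list rose and 5 fell, with a median of -0.04. The levels of Dnmt3a, Dnmt3b and Dnmt3l in EpiLC were 127, 478 and 229 FPKM.

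Many genes that ERK signalling induces were higher in Sirt1KO, in a medium with a MEK inhibitor for both groups. Of 17 genes of the FGF-ERK response, 11 rose and 4 fell, with a median of 0.65, and without Sirt1KO replicate 1 the counts were 11 and 5. The ERK phosphatase Dusp4 (chromosome 8) went from 0.499, 0.63 and 0.569 to 32.6, 19.2 and 15.4 FPKM (3.37 ± 0.26) and its relative Dusp6 from 4.99, 4.48 and 5.40 to 27.1, 19.6 and 15.8 (1.84 ± 0.18, limma adjusted p = 0.000166). The ETS factor Etv4 (chromosome 11) read 0.0927, 0.146 and 0.365 FPKM in wild type and 13.0, 8.77 and 7.88 in Sirt1KO (3.67 ± 0.17). The feedback inhibitor Spry4 read 0.0451, 0.0685 and 0 FPKM and 2.99, 2.28 and 1.87 FPKM (1.69 ± 0.13), and Spred1 2.56 ± 0.132 and 8.65 ± 0.608 (1.44 ± 0.08). Dusp4, Dusp6, Etv4 and Spry4 were in each case highest in replicate 1 and lowest in replicate 3 of Sirt1KO. Replicate 1 was the highest knockout library for 12 of the 17 list members and for 18 of the 21 primed genes, against 34.7% of all loci. The ETS factor Etv5 (from 85.9 ± 0.584 to 61.1 ± 1.80 FPKM, -0.48 ± 0.04) and the early response gene Ier3 (from 30.1 ± 3.12 to 11.7 ± 1.06 FPKM, -1.29 ± 0.08) fell. The immediate early gene Egr1 (-0.04) did not pass, and 3 of the 17 members reached the minimum through Sirt1KO alone.

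The ligands and receptors that feed ERK changed in both directions. Of 11 tested, 5 rose and 5 fell, with Fgf5 and Fgf10 reaching the minimum through Sirt1KO alone and Fgf13 through wild type alone. The ligand Fgf17 went from 3.02 ± 0.477 to 9.11 ± 0.79 FPKM (1.33 ± 0.10) and Fgf10 from 0.346 ± 0.0518 to 3.50 ± 0.3 (1.74 ± 0.10). Fgf4, the main ligand of naive ESC, fell from 179, 179.9 and 185 to 136, 155 and 155 FPKM (-0.28 ± 0.05). The receptor Fgfr2 fell from 7.16, 8.43 and 7.37 to 1.42, 1.14 and 1.18 FPKM (-1.95 ± 0.09), and Fgfr1 (chromosome 8) read 19.8 ± 1.33 and 18.8 ± 0.384 FPKM, a fall after subtraction (-0.53 ± 0.06) and no call without it (-0.07). Among heparan sulfate genes, which shape the co-receptors of FGF, 8 of 19 rose and 4 fell. The glypican core protein Gpc4 (from 3.91 ± 0.476 to 15.7 ± 0.386 FPKM, 1.76 ± 0.08) and the 6-O-endosulfatase Sulf1 (from 3.87 ± 0.405 to 11.1 ± 0.512 FPKM, 1.31 ± 0.08) rose.

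Most members of the naive network were lower. Of 22 naive genes tested, 3 rose and 14 fell, with a median of -0.35. Dppa3, a maternal factor that protects DNA from demethylation, fell from 239.5, 229 and 227 to 69.3, 75.4 and 78.9 FPKM (-1.63 ± 0.05), and the nuclear receptor Nr0b1 fell from 61.6, 60.7 and 59.0 to 29.2, 29.4 and 33.5 (-0.96 ± 0.06). The Sox factor Sox15 (chromosome 11) read 46.9, 48.1 and 47.5 FPKM in wild type and 9.04, 10.4 and 10.9 in Sirt1KO (-1.62 ± 0.06). The Krüppel-like factor Klf2 (chromosome 8) fell from 202, 240.1 and 248 to 144, 145 and 155 FPKM (-1.09 ± 0.07), and Klf5 and Esrrb fell less (-0.47 ± 0.04 and -0.36 ± 0.06). The members that rose were 3. Klf4 went from 52.3, 54.8 and 56.1 to 103, 107 and 114 FPKM (0.98 ± 0.05), Tfcp2l1 from 86.9, 83.4 and 81.9 to 132, 156 and 163 (0.83 ± 0.07), and Stat3 (chromosome 11) from 19.5 ± 0.905 to 22.9 ± 0.946 (0.73 ± 0.05). Stat3 is the transcription factor of the LIF pathway and Klf4 and Tfcp2l1 are among its targets; of that pathway 7 of 14 genes rose and 5 fell. EpiLC stood at 11.9, 7.91 and 6.31 FPKM for them, below both ESC groups. Nanog is merged with its pseudogene in the locus Nanog,Nanogpd, which read 539.5, 556 and 532 FPKM in wild type and 347, 395 and 422 in Sirt1KO (-0.49 ± 0.06).

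Among genes of pluripotency at large, 6 of 15 rose and 5 fell. Pou5f1, which encodes Oct4, read 601, 628 and 602 FPKM in wild type and 670.1, 655 and 655 in Sirt1KO (0.11 ± 0.03, limma adjusted p = 0.00792). That small difference did not pass under quantile normalization (0.02). Sox2 fell from 243, 272 and 274 to 162, 174 and 173 FPKM (-0.63 ± 0.05), and Sall4 from 91.2 ± 5.43 to 55.8 ± 1.14 (-0.70 ± 0.05). Utf1, a chromatin factor of the epiblast, rose from 33.4, 39.1 and 37.9 to 162, 100.98 and 105 FPKM (1.68 ± 0.22), with replicate 1 again highest. Signalling genes of the Nodal pathway gave 8 rises and 3 falls among 14: the effectors Smad3 (0.88 ± 0.08) and Foxh1 (0.85 ± 0.05) and the receptor Acvr1b (0.87 ± 0.07) rose, and the pathway inhibitor Skil fell (-1.05 ± 0.06). Of 10 Wnt genes, 2 rose and 5 fell, Lef1 and the secreted inhibitor Notum (chromosome 11, from 82.7 ± 2.78 to 24.7 ± 2.298 FPKM, -1.2 ± 0.06) among the latter. Of 13 BMP genes, 6 rose and 2 fell, with Id1 at 0.64 and the inhibitory Smad6 at -1.10. The 2 that fell, Smad6 and Msx2, reached the minimum through wild type alone and could only be lower. Of the 14 Nodal genes, 1 likewise reached it through wild type alone.

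**Figure D3:**
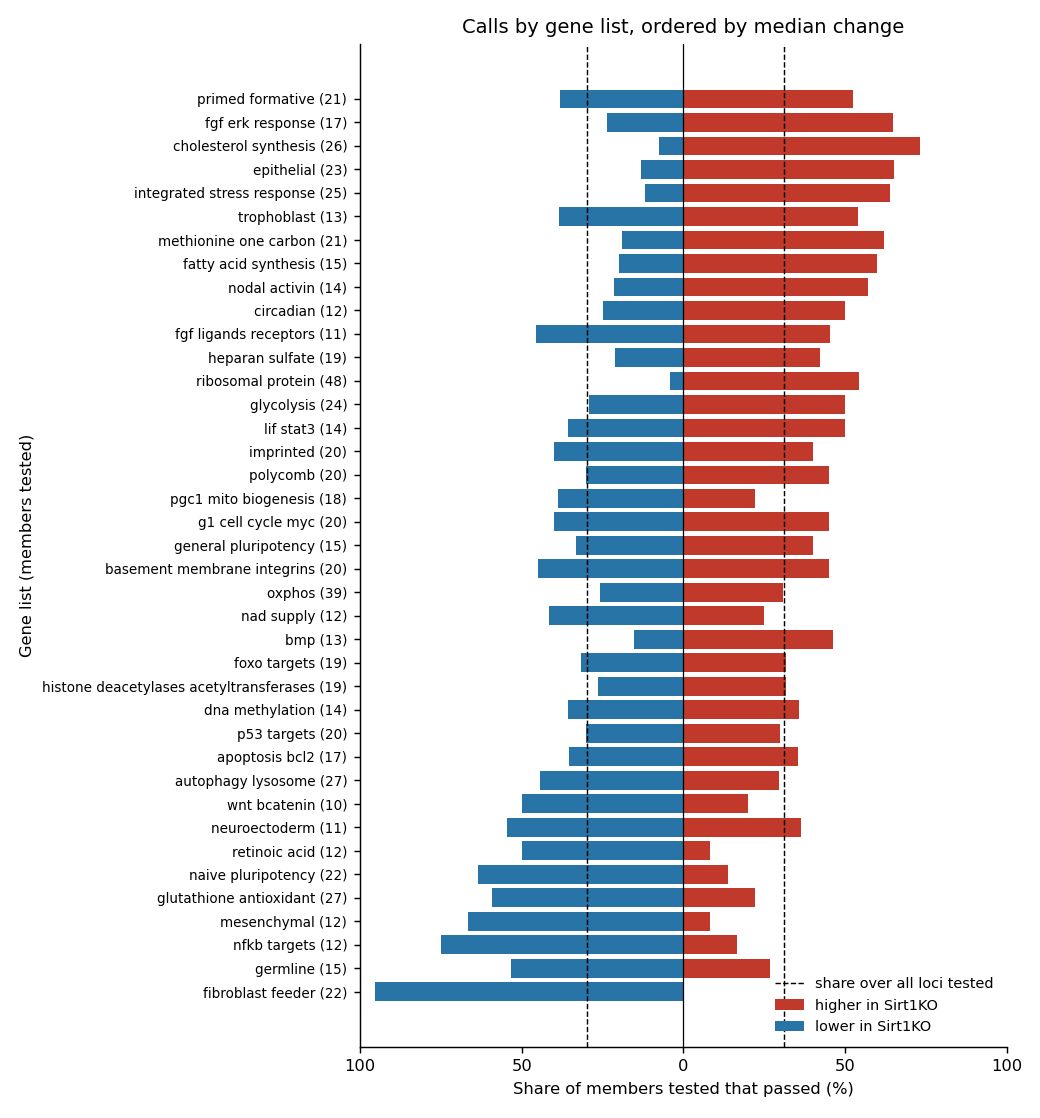
Share of the members tested of each gene list that was called higher (red, right) or lower (blue, left) in Sirt1KO, in percent, for lists with at least 10 members tested (number in brackets), ordered by median change; dashed lines are the shares over all 11670 loci, 31.2% higher and 29.8% lower. Fibroblast, NF-kB and glutathione genes lean to the lower side and sterol, epithelial and stress response genes to the higher side, while oxidative phosphorylation genes lie near the dashed lines.

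Most lineage lists had many members under the minimum in both groups, and those tested moved in both directions. The proneural factor Neurog1 fell from 34.3, 34.1 and 30.8 to 1.23, 0.961 and 0.758 FPKM (-4.11 ± 0.09), and the neural factors Sox21 (from 9.78 ± 0.967 to 0.84 ± 0.127 FPKM) and Olig3 (from 4.01 ± 0.265 to 0.472 ± 0.105 FPKM) fell too. Of 11 neuroectoderm genes tested, 4 rose and 6 fell, and 12 more were under the minimum. Germline genes gave 4 rises and 8 falls among 15 tested, with 12 under the minimum. The RNA-binding protein Dazl (from 13.2, 11.2 and 10.6 to 2.58, 3.08 and 2.96 FPKM, -1.71 ± 0.10), the meiotic gene Hormad1 (-1.86 ± 0.10) and Nanos3 (chromosome 8, -2.07 ± 0.14) fell, whereas the piRNA factor Piwil2 rose from 0.725 ± 0.189 to 3.67 ± 0.414 FPKM (1.44 ± 0.11). The organizer gene Gsc fell from 12.6, 13.6 and 11.6 to 3.30, 2.89 and 2.99 FPKM (-1.74 ± 0.08), while 13 of 17 mesendoderm genes, T and Mixl1 included, were under the minimum. Of the 4 mesendoderm genes tested, 2 rose and only Gsc fell. Of 20 genes of the primitive endoderm 14 were under the minimum, Gata6 and Sox17 among them. Of the 6 tested, 3 rose and 3 fell, with a median of -0.41, and the 3 falls were all of at least 1 log2 unit. The endocytic receptor Lrp2 was among the rises, from 0.432 ± 0.0162 to 3.92 ± 1.13 FPKM (1.76 ± 0.15). Of 18 genes of the 2-cell-like state that matched a locus, 17 were under the minimum, and so were 18 of 21 Hox genes. Sox21, Olig3, Pax6, Nanos3, Smc1b and Usp26 reached the minimum through wild type alone and Piwil2 and Lrp2 through Sirt1KO alone, so each could only move 1 way.

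Trophoblast genes moved in both directions, with 7 of 13 tested higher and 5 lower. The keratins Krt18 (3.14, 2.43 and 2.20 FPKM in wild type, 24.98, 18.1 and 19.4 in Sirt1KO, 2.60 ± 0.13), Krt8 (1.56 ± 0.09) and Krt7 (1.41 ± 0.09) rose, as did the factor Tead4 (from 3.99, 4.01 and 3.9998 to 11.8, 14.04 and 13.9 FPKM, 1.51 ± 0.08). Krt18 and Krt8 also belong to the epithelial list below and are counted there too. The factors Tfap2c (from 79.6, 83.0 and 77.7 to 25.1, 28.2 and 28.4 FPKM, -1.52 ± 0.06), Rhox6 (-1.81 ± 0.14) and Rhox9 (-2.52 ± 0.10) fell. Cdx2, Elf5 and Gata3 were under the minimum. Retinoic acid genes gave 1 rise and 6 falls among 12: the retinoid-binding protein Crabp1 fell from 35.6, 34.1 and 34.0 to 9.99, 12.8 and 13.5 FPKM (-1.45 ± 0.09), and the retinoic acid target Stra8 from 3.24, 4.08 and 4.51 to 0.151, 0.132 and 0.409 (-2.0 ± 0.13). The gene that rose was Aldh1a3, a retinaldehyde dehydrogenase, at 0.0517 ± 0.0184 and 1.24 ± 0.131 FPKM. Of the 12, 2 (Stra8 among them) reached the minimum through wild type alone and 1 (Aldh1a3) through Sirt1KO alone, so each could only move 1 way.

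Of the lists with at least 10 members tested, that of fibroblast and matrix genes had the largest share of calls in 1 direction. Of 22 tested, 0 rose and 21 fell, and the median change was -1.91. The type I collagen chain Col1a1 (chromosome 11) read 31.9, 43.4 and 39.3 FPKM in wild type and 2.39, 1.56 and 1.48 in Sirt1KO (-3.30 ± 0.15), and type III collagen Col3a1 33.6, 36.2 and 39.3 and 2.08, 2.02 and 2.20 (-3.59 ± 0.07). The collagen crosslinking enzyme Lox fell from 23.8, 28.6 and 26.3 to 1.62, 1.37 and 1.96 FPKM (-3.36 ± 0.10) and smooth muscle actin Acta2 from 17.6, 14.5 and 17.8 to 1.68, 1.52 and 0.811 (-2.93 ± 0.15). The groups did not overlap for any of these 4 genes. Of the defining markers, the receptors Pdgfra (0.409 and 0.151 FPKM in the 2 groups) and Pdgfrb (0.701 and 0.152) were under the minimum, and Tagln did not pass (0.15 ± 0.17) except without Sirt1KO replicate 3 (0.33). Thy1 passed as lower, from 6.64 ± 0.556 to 5.33 ± 0.886 FPKM with overlapping libraries (-0.28 ± 0.11, limma adjusted p = 0.0446), a call lost without replicate 2 or 3 of either group. The summed FPKM of the 24 markers was 249.7 to 285 in wild-type ESC, 45.0 to 55.9 in Sirt1KO, 146 to 155 in EpiLC and 444 to 457 in Sirt1KO Otx2KD. In bulk RNA, fewer cells of a type and less RNA per cell cannot be told apart, and the part of fibroblast RNA in the other results was not tested. Of the 22 genes, 9 reached the minimum through wild-type ESC alone and could only be lower in Sirt1KO.

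**Figure D4:**
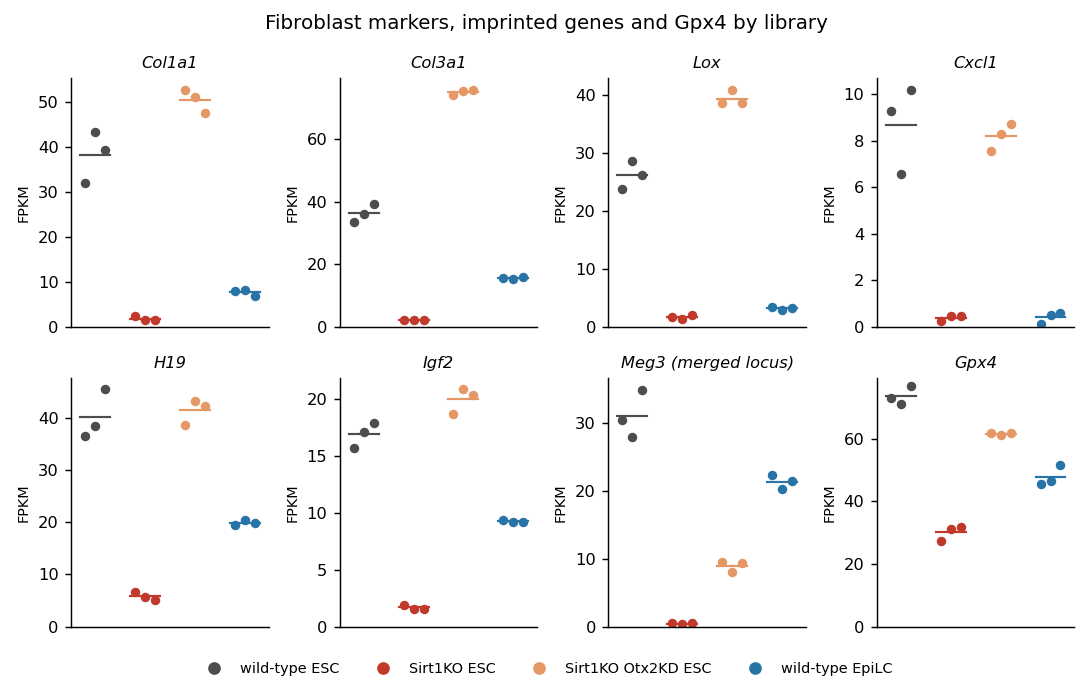
FPKM of fibroblast genes, the chemokine Cxcl1, imprinted genes and the peroxidase Gpx4 in each of the 12 libraries, with 1 panel per gene and its own linear axis from 0; points are libraries, bars the group mean. Every gene shown is lower in Sirt1KO than in wild-type ESC without overlap, and all except the Meg3 locus are higher in Sirt1KO Otx2KD than in EpiLC.

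Targets of NF-kB, which fibroblasts also express, were mostly lower too. Of 12 NF-kB targets tested, 2 rose and 9 fell, with a median of -0.50. Of the 12, 3 (Cxcl1, Ccl2 and Vcam1) reached the minimum through wild-type ESC alone and could only be lower. The chemokine Cxcl1 fell from 9.27, 6.58 and 10.2 to 0.253, 0.443 and 0.457 FPKM (-2.79 ± 0.14) and the adhesion molecule Icam1 from 68.5, 67.6 and 69.4 to 29.1, 32.6 and 31.0 (-1.12 ± 0.05). The inhibitor Nfkbia, itself a target, fell from 70.1, 71.1 and 67.9 to 33.0, 35.1 and 32.5 FPKM (-1.03 ± 0.05). The subunit genes Rela (from 6.68 ± 0.92 to 8.88 ± 0.408 FPKM, 0.37 ± 0.09) and Nfkb2 (0.51 ± 0.09) were the ones that rose. In Sirt1KO Otx2KD, Cxcl1 stood at 8.19 ± 0.589 FPKM and Icam1 at 59.5 ± 1.30, and in EpiLC at 0.406 and 9.04.

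Imprinted genes, expressed from 1 parental copy, gave 8 rises and 8 falls among 20 tested, but 2 clusters stood far down. H19, a long noncoding RNA, fell from 36.5, 38.6 and 45.6 to 6.69, 5.62 and 5.16 FPKM (-2.59 ± 0.10), and its neighbour Igf2, a growth factor, from 15.7, 17.1 and 17.9 to 1.90, 1.59 and 1.57 (-2.74 ± 0.08). In mice H19 is expressed from the maternal copy and Igf2 from the paternal copy. In the Dlk1-Meg3 cluster, the locus that merges Meg3,Mir1906-1,Mir770 read 30.3, 27.9 and 34.8 FPKM in wild type and 0.518, 0.332 and 0.505 in Sirt1KO (-4.46 ± 0.10), and the locus AF357359,Rian 19.3, 18.97 and 20.7 and 0.287, 0.161 and 0.213 (-4.08 ± 0.08). Such merged loci are outside the list count and were chosen after their values were seen. The locus of Mirg, merged as Mir369,Mir410,Mir412,Mirg, read 2.80, 2.65 and 2.58 FPKM in wild type and was listed at 0 in all 3 Sirt1KO libraries. Peg12 fell from 2.47, 2.67 and 2.52 to 0.194, 0.0679 and 0.14 FPKM (-1.65 ± 0.10) and reached the minimum through wild type alone. Ndn (from 7.46 to 3.42 FPKM, -0.96 ± 0.15) and Mkrn3 (from 3.50 to 1.64 FPKM, -0.77 ± 0.13) fell as well, while Ube3a rose (0.47 ± 0.06). Among those that rose were Nnat, a proteolipid gene (from 3.09, 3.25 and 2.84 to 15.3, 11.8 and 9.76 FPKM, 1.69 ± 0.13), Mest (from 9.01 ± 0.733 to 17.2 ± 2.54 FPKM) and Gnas, a G protein subunit (from 83.5 ± 2.70 to 149 ± 11.7 FPKM).

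The imprinted clusters differed in the other groups as well. In Sirt1KO Otx2KD, H19 read 41.5 ± 2.41 FPKM and Igf2 20.0 ± 1.12, and in EpiLC H19 read 19.9 ± 0.541 and Igf2 9.24 ± 0.0778. The Meg3,Mir1906-1,Mir770 locus stood at 8.97 ± 0.78 FPKM in Sirt1KO Otx2KD and at 21.3 ± 1.05 in EpiLC. H19 and Igf2 thus read close to their wild-type ESC levels in that knockout group, and the Meg3 locus below its own. The fibroblast marker sum given above was highest in that same group, and its part in the levels of H19 and Igf2 was not tested.

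Epithelial genes were mostly higher and mesenchymal genes mostly lower. Of 23 epithelial genes, 15 rose and 3 fell, with a median of 0.44, or 0.86 with a minimum of 5 FPKM. Of the claudins, which build tight junctions, 3 of the 4 tested rose: Cldn7 (chromosome 11) from 2.68, 3.94 and 3.22 to 25.1, 20.1 and 18.01 FPKM (2.87 ± 0.14), Cldn6 from 21.4, 24.4 and 26.3 to 79.4, 73.5 and 69.7 (1.59 ± 0.08) and Cldn4 (1.10 ± 0.05). Cldn3 did not pass, with 5.00 ± 0.518 FPKM in wild type and 4.99 ± 0.816 in Sirt1KO (-0.01 ± 0.11). The membrane protease Prss8 (2.06 ± 0.14), the epithelial splicing regulator Esrp1 (1.86 ± 0.14) and the adhesion molecule Epcam (0.95 ± 0.09) rose as well. E-cadherin, Cdh1 (chromosome 8), read 142 ± 5.05 and 204 ± 5.52 FPKM and did not pass once the chromosome's median was subtracted (0.05 ± 0.04, limma adjusted p = 0.272). Of 12 mesenchymal genes, 1 rose and 8 fell, 2 of which (Tgfbr2 and Snai2) reached the minimum through wild type alone. The TGF-beta receptor Tgfbr2 fell from 3.90, 3.55 and 4.68 to 0.314, 0.348 and 0.265 FPKM (-1.94 ± 0.11), vimentin, Vim, from 171 ± 6.59 to 97.8 ± 7.38 (-0.80 ± 0.06), and the repressor of epithelial genes Zeb1 from 6.09 ± 0.199 to 3.13 ± 0.319 (-0.78 ± 0.08).

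Genes of sterol synthesis and uptake rose from the early to the late steps of the pathway. Of 26 tested, 19 rose and 2 fell, with a median of 0.50. Among the early enzymes, mevalonate decarboxylase Mvd (chromosome 8) went from 34.8, 30.3 and 31.9 to 92.6, 88.6 and 79.4 FPKM (0.93 ± 0.07). Squalene epoxidase Sqle went from 57.6 ± 0.999 to 86.4 ± 2.19 FPKM (0.58 ± 0.04), lanosterol synthase Lss from 26.1, 23.1 and 23.8 to 54.8, 49.0 and 50.3 (1.05 ± 0.06), and the desaturase Sc5d from 12.5, 12.0 and 12.9 to 27.6, 25.6 and 26.2 (1.03 ± 0.05). The groups did not overlap for any of these 4 genes. The genes of the regulators Srebf2 (-0.05), Scap (0.07) and Insig1 (0.07) did not pass. Another regulator, Srebf1 (chromosome 11), read 27.6 FPKM in wild type and 27.0 in Sirt1KO. It was called higher after subtraction (0.48 ± 0.06), and its change without subtraction was -0.03. The isomerase Ebp fell from 52.0, 53.9 and 49.1 to 18.5, 20.5 and 23.5 FPKM (-1.28 ± 0.08). Ebp lies in the lowered stretch of chromosome X, and with window medians subtracted its change was -0.42. Fatty acid synthesis genes gave 9 rises and 3 falls among 15, with Acsl4, an acyl-CoA ligase for polyunsaturated fatty acids, at 1.19 ± 0.08 and fatty acid synthase Fasn (chromosome 11), which did not pass, at -0.08, or -0.58 and lower without subtraction.

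Genes of the integrated stress response, in which Atf4 raises amino acid and tRNA charging genes, were mostly higher. Of 25 genes, 16 rose and 3 fell, with a median of 0.40. Atf4 itself went from 248, 248 and 258 to 338, 340.4 and 323 FPKM (0.41 ± 0.03), Atf3 from 2.68, 2.32 and 3.08 to 6.92, 6.30 and 5.73 (0.99 ± 0.10) and the glutathione-degrading enzyme Chac1 from 8.90, 9.32 and 10.5 to 22.7, 18.6 and 17.2 (0.95 ± 0.10). The glycyl-tRNA synthetase Gars rose from 73.1, 80.9 and 78.9 to 205, 191 and 190.4 FPKM (1.32 ± 0.05). Gars lies in the raised stretch of chromosome 6, and with window medians subtracted its change was 0.75 and still passed. Asparagine synthetase Asns, a textbook Atf4 target, fell from 433, 422 and 433 to 369, 384 and 393 FPKM (-0.17 ± 0.03), and did not pass with window medians subtracted (-0.03).

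**Figure D5:**
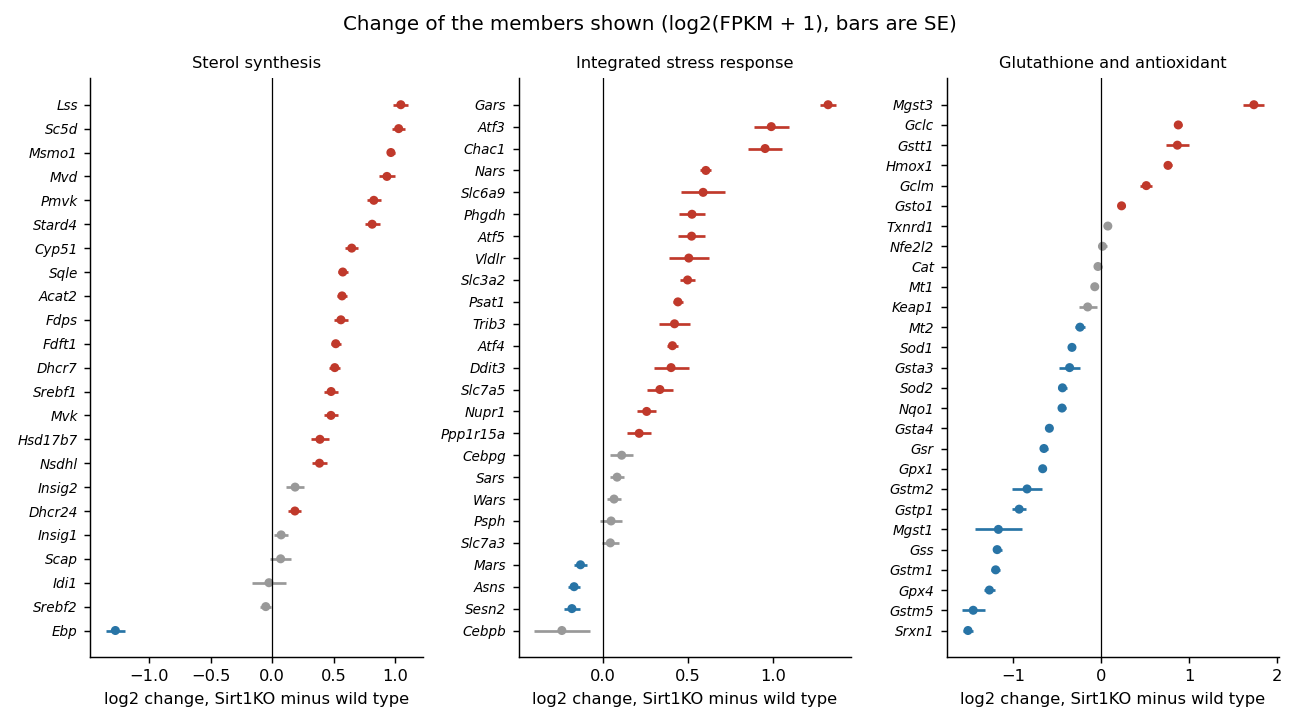
Log2 change, Sirt1KO minus wild type on the log2(FPKM + 1) scale, of members tested of 3 lists; points are estimates, bars ± SE, red called higher, blue called lower and grey not called. In sterol synthesis 17 of the 23 points shown are red, in the integrated stress response 16 of 25, and among glutathione and antioxidant genes 16 of 27 are blue.

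Promoters of both lists were searched on both strands, over the 250 bases before the RefSeq gene start, for the binding motif of the factor known for them (N stands for any base). The sterol regulatory element TCACNCCAC was in 0 of the 18 sterol genes with a promoter sequence, against 1.32% of 8131 tested genes. The ATF4 response element TGATGNAAT was in 2 of 20 stress response genes, or 10%, against 0.418% of all. The 2 genes are Gars and Nupr1, a stress-induced chromatin protein, and both rose; the other 18 had no match in this window. Their sequences are shown around the match, which is in capitals and is here the reverse complement of the motif, in RefSeq GRCm38.p6 coordinates and 5' to 3' on the strand of the gene.
Gars, chr6:55037944-55038000, plus strand: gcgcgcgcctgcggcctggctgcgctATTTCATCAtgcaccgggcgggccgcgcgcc
Nupr1, chr7:126625547-126625607, minus strand: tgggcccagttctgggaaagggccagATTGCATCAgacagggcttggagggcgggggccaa
The match ends 22 bases before the Gars start and 102 bases before the Nupr1 start. Nupr1 went from 51.7, 46.3 and 46.7 to 54.5, 59.8 and 59.1 FPKM (0.26 ± 0.06, limma adjusted p = 0.00281).

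Glutathione and antioxidant genes leaned to the lower side. Of 27 tested, 6 rose and 16 fell, with a median of -0.36, and without subtraction 8 rose and 14 fell with a median of -0.18. Gpx4, the peroxidase that removes lipid peroxides, fell from 73.2, 71.3 and 76.9 to 27.2, 31.2 and 31.9 FPKM (-1.27 ± 0.06), and the abundant Gpx1 from 1032, 1032 and 1024 to 625, 646 and 679.7 (-0.66 ± 0.03). Glutathione synthetase Gss fell from 37.5, 38.9 and 40.4 to 16.3, 17.4 and 16.1 FPKM (-1.18 ± 0.05), the transferase Gstm1 from 41.8 ± 1.94 to 17.7 ± 0.347 (-1.2 ± 0.05) and sulfiredoxin Srxn1 from 35.2, 36.1 and 37.3 to 11.7, 11.6 and 12.9 (-1.51 ± 0.06). The groups did not overlap for any of these 5. The first step of glutathione synthesis went the other way: the ligase subunits Gclc (from 15.3, 14.8 and 14.98 to 29.0, 28.8 and 27.5 FPKM, 0.88 ± 0.05) and Gclm (from 34.2 ± 3.25 to 49.2 ± 2.02 FPKM, 0.51 ± 0.07) rose. Heme oxygenase Hmox1 (chromosome 8, 0.76 ± 0.04) and the transferase Mgst3 (1.74 ± 0.12) rose too. The gene of the antioxidant regulator Nfe2l2 did not pass (0.02 ± 0.05). Gstm genes are close copies of each other, so their single values are less certain.

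One-carbon genes rose more often than they fell, 13 against 4 of 21. Cystathionine gamma-lyase Cth, which makes cysteine from methionine, went from 26.9, 26.6 and 23.2 to 64.7, 69.1 and 67.5 FPKM (1.36 ± 0.06), and the formate-producing mitochondrial enzyme Mthfd1l from 23.1 ± 1.09 to 38.6 ± 1.72 (0.72 ± 0.05). Methionine adenosyltransferase Mat2a rose from 94.7, 93.5 and 96.4 to 119, 123.3 and 129 FPKM (0.38 ± 0.04), but it lies in the raised stretch of chromosome 6, and with window medians subtracted its change was -0.40. The polyamine enzymes Srm (-0.61 ± 0.05) and Sms (-1.06 ± 0.06), which use decarboxylated S-adenosylmethionine, fell. In glycolysis 12 of 24 genes rose and 7 fell. Gapdh was among the rises at only 2.24 FPKM in wild type and 4.38 in Sirt1KO, against 826 and 843 for Aldoa, so its value is uncertain. Pdk1, a kinase that inhibits pyruvate dehydrogenase, went from 6.19, 5.20 and 5.66 to 20.8, 17.6 and 15.4 FPKM (1.49 ± 0.10) and lactate dehydrogenase Ldha from 320.1, 311 and 330.1 to 517, 502 and 482 (0.64 ± 0.04), while Pfkm fell (-0.83 ± 0.06). Oxidative phosphorylation genes gave 12 rises and 10 falls among 39, with a median of 0.01 against 0.02 over all loci. Ribosomal protein genes gave 26 rises and 2 falls among 48, of small size (median 0.15). Many of these have processed copies in the genome, which makes their FPKM uncertain.

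Of the genes tied to Sirt1 by its known substrates and cofactor, p53 and FoxO targets were called at about the shares of all loci (31.2% higher and 29.8% lower). Of 20 p53 targets, 6 rose and 6 fell. The BH3-only gene Pmaip1 went from 13.6, 14.1 and 14.02 to 77.6, 65.3 and 57.2 FPKM (2.17 ± 0.10) and the cell cycle inhibitor Cdkn1a from 152, 143 and 144 to 207, 225 and 238 (0.60 ± 0.05). The exonuclease Aen fell from 33.3, 32.2 and 32.1 to 14.2, 13.9 and 15.5 FPKM (-1.11 ± 0.05), and Mdm2 passed as lower (-0.12 ± 0.04, limma adjusted p = 0.0341), a call lost without replicate 2 or 3 of Sirt1KO or replicate 1 or 2 of wild type. Trp53 (chromosome 11) read 258, 276 and 268 FPKM in wild type and 136, 136 and 141 in Sirt1KO (-0.44 ± 0.04). Of 19 FoxO targets 6 rose and 6 fell, with Txnip, which inhibits thioredoxin, at 32.1 ± 1.86 and 69.8 ± 1.68 FPKM (1.10 ± 0.05) and the mitophagy kinase Pink1 at 13.7 ± 1.69 and 4.27 ± 0.318 (-1.48 ± 0.09). Of 18 genes of mitochondrial biogenesis and fatty acid oxidation, 4 rose and 7 fell, and the coactivator gene Ppargc1a was under the minimum. Circadian genes gave 6 rises and 3 falls among 12; Per2 was under the minimum and Clock fell (-0.28 ± 0.07).

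In NAD supply, 3 of 12 genes rose and 5 fell. The rate-limiting salvage enzyme Nampt read 60.2, 60.003 and 61.3 FPKM in wild type and 65.4, 67.1 and 62.6 in Sirt1KO, without overlap, and missed the threshold narrowly (0.10 ± 0.04, limma adjusted p = 0.0528). Nnmt, which removes nicotinamide by methylation, fell from 5.66, 4.67 and 6.09 to 1.13, 0.771 and 0.454 FPKM (-1.87 ± 0.15), and of the NAD-consuming polymerases Parp1 fell (-0.30 ± 0.04) and Parp2 rose (0.49 ± 0.06). Other deacetylases and acetyltransferases gave 6 rises and 5 falls among 19, where Hdac1 (-0.09) and Hdac2 (0.09) did not pass and Hdac7 rose from a low level (1.21 ± 0.236 to 2.88 ± 0.379 FPKM). Of 20 Polycomb genes, 9 rose and 6 fell. The core subunit Suz12 (chromosome 11) read 189, 192 and 186 FPKM in wild type and 69.5, 73.2 and 73.0 in Sirt1KO (-0.87 ± 0.04), and the accessory subunits Phf19 (-1.61 ± 0.13) and Aebp2 (-0.78 ± 0.06) fell as well. The catalytic subunit Ezh2 did not pass (-0.01 ± 0.04) but did with window medians subtracted (-0.30). Autophagy and lysosome genes gave 8 rises and 12 falls among 27, a list whose median of -0.16 became 0.08 without the chromosome subtraction. Its largest change was that of the receptor Calcoco2 (chromosome 11), from 363, 355 and 362 to 52.0, 60.1 and 65.4 FPKM (-2.08 ± 0.07). The lysosomal regulator Tfe3 fell (-0.97 ± 0.07), but not with window medians subtracted (-0.12, limma adjusted p = 0.136).

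Genes of G1 control and of the Bcl2 family also gave calls in both directions, beside 31.2% higher and 29.8% lower over all loci. Of 20 G1 and Myc family genes, 9 rose and 8 fell. The D cyclins differed: Ccnd1 rose from 23.6, 23.2 and 23.8 to 41.0, 41.2 and 44.4 FPKM (0.81 ± 0.05), while Ccnd3, the most abundant of them in wild type, fell from 128, 134 and 141 to 57.8, 53.3 and 55.6 (-1.26 ± 0.05) and Ccnd2 from 3.44 ± 0.0492 to 0.758 ± 0.173 (-1.34 ± 0.10). Ccnd2 reached the minimum through wild type alone and could only be lower. In the Bcl2 family 6 of 17 rose and 6 fell, with the BH3-only genes Bid (0.90 ± 0.04) and Bik (-1.37 ± 0.14) on opposite sides. Basement membrane and integrin genes gave 9 rises and 9 falls among 20: the laminin chain Lama1 (0.84 ± 0.08) and the integrins Itgb4 (0.75 ± 0.10) and Itga3 (0.72 ± 0.09), both on chromosome 11, rose (without subtraction, 0.24 and 0.21 with no call), and the type IV collagen chains Col4a1 (-1.0 ± 0.11) and Col4a2 (-1.09 ± 0.12), both on chromosome 8, fell. Among the 9 falls, 2 (Itga7 and Itgb3) reached the minimum through wild type alone and could only be lower.

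The 15 genes with the largest rises, by a rule that asked for separate groups and a mean of at least 5 FPKM in the higher one, hold several primed and ERK genes already described. Carbonic anhydrase Car4 (chromosome 11) read 0.0901, 0.183 and 0 FPKM in wild type and 27.3, 18.4 and 13.5 in Sirt1KO (4.71 ± 0.24). The transglutaminase Tgm1 went from 0.522, 1.10 and 0.625 to 13.8, 14.3 and 17.6 FPKM (3.22 ± 0.14), the POU factor Pou2f3 from 0.895, 0.778 and 1.09 to 13.7, 15.5 and 17.2 (3.09 ± 0.10) and autotaxin, Enpp2, from 0.0325, 0.118 and 0.0961 to 9.69, 7.81 and 6.60 (3.05 ± 0.13). Thyrotropin-releasing hormone, Trh, the most abundant of the 15, went from 36.7, 39.7 and 35.3 to 235, 251 and 259 FPKM (2.70 ± 0.05, limma adjusted p = 1.45e-09). The small GTPase Arl4c (2.82 ± 0.16), the intermediate filament peripherin, Prph (2.71 ± 0.12), the calcium pump Atp2a3 (chromosome 11, 2.84 ± 0.08) and the ion pump regulator Fxyd6 (2.52 ± 0.06) complete the set with Dnmt3l, Dnmt3b, Etv4, Dusp4, Cldn7 and Krt18. Car4, Enpp2, Etv4 and Dusp4 reached the minimum through Sirt1KO alone and could only be higher.

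Set beside the other groups, these genes fell into different patterns. Car4, Enpp2, Trh, Arl4c and Prph had EpiLC means of 28.5, 17.9, 363, 23.4 and 14.8 FPKM. Their means in Sirt1KO Otx2KD were 3.00, 1.01, 8.46, 4.003 and 1.87 FPKM. Tgm1, Pou2f3 and Atp2a3 had EpiLC means of 0.842, 1.33 and 2.17 FPKM, near their wild-type ESC means of 0.749, 0.921 and 2.14. In Sirt1KO Otx2KD these 3 were at 5.92 ± 0.34, 8.20 ± 0.318 and 12.9 ± 0.491 FPKM. So Atp2a3 was high in both knockout groups and not in EpiLC, whereas Trh was high in Sirt1KO and EpiLC and lower in Sirt1KO Otx2KD than in wild-type ESC, where its mean was 37.2.

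The 15 genes with the largest falls were led by the Y-linked Eif2s3y (-4.77 ± 0.08) and the X-linked deubiquitinase Usp26, which fell from 28.4, 27.4 and 25.4 to 0.625, 0.415 and 0.466 FPKM (-4.23 ± 0.08). They hold Neurog1, Ddx3y, Porcn and 4 matrix genes given above (Col3a1, Col1a2, Lox and Col1a1). The others were the pattern recognition protein Ptx3, from 17.3, 20.1 and 22.3 to 0.494, 1.202 and 0.645 FPKM (-3.57 ± 0.15), the metallothionein Mt4 (chromosome 8), from 102, 74.5 and 78.1 to 8.52, 9.22 and 10.9 (-3.48 ± 0.14), Aard, from 24.8, 25.3 and 21.3 to 1.81, 1.08 and 1.12 (-3.42 ± 0.12), the transmembrane protein Tmem40 (-3.30 ± 0.10), the metalloprotease Mep1b (-3.17 ± 0.09) and the forkhead factor Foxn4, from 14.3, 15.6 and 15.9 to 0.955, 0.867 and 0.925 (-3.09 ± 0.08). Every library of one group lay outside the range of the other for all 30 genes, as the rule required. Eif2s3y, Ddx3y, Usp26, Porcn and Foxn4 reached the minimum through wild type alone and could only be lower. Usp26, Aard, Tmem40 and Mep1b were below wild type in the other groups too, with Sirt1KO Otx2KD means of 3.29, 12.1, 3.97 and 11.7 FPKM and EpiLC means of 7.22, 2.50, 4.12 and 1.68 FPKM, against wild-type ESC means of 27.1, 23.8, 21.0 and 20.6. Foxn4 stood at 1.13 ± 0.134 FPKM in Sirt1KO Otx2KD and at 1.42 ± 0.253 in EpiLC, so its high level was seen in wild-type ESC alone among the 4 groups.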

How the data were processed

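RNA was measured by polyA RNA-seq in 12 mouse libraries, of which the 3 Sirt1KO and 3 wild-type ESC libraries were compared. The FPKM values per locus are as the authors deposited them; the submitters' processing notes name TopHat, Cufflinks, Cuffdiff and the mm9 build, without versions. Each file lists 27914 loci, 23136 of them named. Loci without a name held 95.3 to 96.5% of the FPKM sum in the 6 compared libraries and were left out. No 2 libraries were identical. FPKM are scaled by a library total, so a change of a few abundant loci moves the others, and they hold no counts.

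Computed here were log2(FPKM + 1) with a pseudocount of 1, for 11670 named loci of at least 1 FPKM in at least 3 of the 6 libraries, and limma 3.58.1 (R 4.3.3; robust eBayes with a mean-variance trend; residual degrees of freedom 4) with Benjamini-Hochberg adjustment over all of them, called under 0.05. The medians of chromosomes 8 and 11 were subtracted from Sirt1KO values first. The procedure was also run on simulated independent values with few changed loci. That setting is unlike these data, so it does not give their rate of false calls. Exact permutation of 3 against 3 libraries cannot go below 0.1, so no such test is given. Among tested loci, 190 carry merged names and 129 a symbol found at more than 1 locus.

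Named genes are Sirt1, Otx2 and Pou5f1; the 15 largest changes in each direction among called loci whose groups did not overlap and whose higher mean was at least 5 FPKM, without merged, repeated or predicted names; for each list the up to 5 called members with the largest moderated t, with other members by their values; and up to 5 neighbours of Sirt1. Others are said to be chosen after their values were seen. The members and lists were chosen with earlier results of these data known. Alternatives were other scalings, pseudocounts, minimums, chromosome or window medians, fits and left-out libraries. Replicate numbers did not pair the libraries. Promoter sequences are from RefSeq GRCm38.p6 and were matched by symbol; no position was converted to mm9. Results for some genes are not reported here.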

Additional observations from a re-analysis of the deposited data

How the results depend on the processing

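The counts of loci higher and lower stayed within 1.5 times of 3645 and 3479 under every alternative run, and ran from 3215 to 3520 and from 3123 to 3343 when 1 library at a time was left out. The counts of changes of at least 1 log2 unit moved more. Loci higher were 196 with a minimum of 5 FPKM, 553 with a pseudocount of 0.01, 527 with 0.1 and 475 with unnamed loci included, against 316, and loci lower were 357 with the minimum of 5 and 874 with unnamed loci, against 538. The median change of chromosome 8 was 0.4849 with a minimum of 5 FPKM, 0.3444 with no minimum, 0.5159 and 0.5107 with pseudocounts of 0.01 and 0.1, 0.5027 after quantile normalization and 0.4534 to 0.4817 with 1 library left out. For chromosome 11 the same settings gave -0.5558, -0.3234, -0.5674, -0.5604, -0.4775 and -0.5074 to -0.4977. List medians that turned were those of autophagy (0.0848), LIF pathway (-0.0918) and mesendoderm genes (-0.0799) without chromosome subtraction, of FGF ligands and receptors (-0.0230), mesendoderm (-1.7447) and primitive endoderm genes (0.5118) with a minimum of 5 FPKM, and of mesendoderm genes with pseudocounts of 0.01 (-0.1679) and 0.1 (-0.0893). Of 288 named genes, 261 kept their direction and their side of the threshold over the settings they were tested in, 19 at most. Genes that turned were Cox4i1 without subtraction (0.1965), and Mat2a (-0.3976), Nadk (0.0160) and Tcf7l1 (-0.5314) with window medians subtracted; the cause was not tested. With a replicate block, 3401 loci were higher and 3256 lower and 92.4% of calls were kept; same-numbered libraries had correlations of deviations of -0.04, -0.13 and -0.09, so the numbers do not pair them. FPKM hold no counts, so low genes carry an error that cannot be stated here.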
